A study of Mus musculus with 4 samples.

Results

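The genes described here are 10 matricellular genes: the thrombospondins Thbs1, Thbs2 and Thbs3, the tenascins Tnc and Tnxb, the periostin gene Postn, and the CCN genes Ccn1, Ccn2, Ccn4 and Ccn5. They were chosen by name from these families, without a cut on measured values, and all 10 were found among the 25239 gene symbols counted. RNA-seq of poly(A) RNA was performed on cultured mouse chondrocytes, the cells that build and maintain cartilage. The study asks what these cells express once Tiki2, a membrane protease that inactivates Wnt proteins and is encoded by Trabd2b, is depleted. The 2 control libraries came from Tiki2 fl/fl mice and the 2 conditional knockout (cKO) libraries from mice that carry, besides Tiki2 fl/fl, a Cre recombinase labelled Col2a1-Cre/ERT or Col2a-CreERT2, which is driven by the type II collagen gene. Every culture, controls included, received 4-hydroxytamoxifen, which activates this form of Cre. The control cultures lack the Cre, so effects of the Cre protein and of Tiki2 loss cannot be told apart. Neither the age of the mice nor whether a replicate is a separate animal was stated in the sources used here, so p-values describe the spread between these libraries, which may be technical.

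Matricellular proteins are secreted into the extracellular matrix but act mainly as signals, by binding cell surface receptors, growth factors and collagen fibrils, rather than as load-bearing parts. Thrombospondins bind CD36, CD47 and integrins, tenascins and periostin modulate cell adhesion and fibril assembly, and CCN proteins bind integrins, heparan sulfate and growth factors. Several are produced when tissue is injured or mechanically loaded, and Ccn1 and Ccn2 are standard target genes of the mechanically regulated coactivators YAP and TAZ, which act through TEAD factors. Ccn4 and Ccn5 were first named Wnt1-inducible signalling pathway proteins (WISP1 and WISP2).

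Total counts ran from 66750140 to 78873054 per library. Control replicate 1 had 112185 counts of Xist and 0 of the Y-linked gene Ddx3y, whereas the other libraries had 36 to 171 and 11073 to 12085, so that library differs in sex from the rest. Trabd2b had 436 and 415 CPM in the controls against 292 and 363 CPM in cKO. Its log2 fold change was -0.38 ± 0.11 (SE), with an adjusted p of 0.15 (edgeR) and of 0.0071 by DESeq2. It was -0.54 without cKO replicate 2 (edgeR adjusted p = 0.027) and -0.23 without cKO replicate 1 (0.13). CPM here are counts scaled by library size and by TMM, a factor that corrects for differences in RNA composition. The chondrocyte label was checked on 10 markers. All 10 were detected, and all 10 were lower in each cKO library than in each control library. By edgeR 8 of them passed at an adjusted p under 0.05, and by DESeq2 all 10. Col2a1, the main cartilage collagen, had 14352 and 17760 CPM in controls against 7792 and 5381 CPM in cKO. In bulk RNA, fewer cells of a type and less RNA per cell cannot be told apart.

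Windows of 250 bases before a RefSeq start site (GRCm38.p6, the build the study calls mm10) were given for 6 of the 10 genes, with none for Thbs1, Ccn2, Ccn4 and Ccn5. The 5 printed here belong to genes whose values were higher in each cKO library than in each control library. They are written 5′ to 3′ on the strand of the gene, and for Postn the start site 2 bases from the GENCODE gene start is used. Capitals mark matches, on either strand, to 5 motifs: CATTCC (TEAD), the CArG box (SRF), TGANTCA (AP-1), CAGACA (SMAD) and CTTTGAT (TCF/LEF).
Thbs2 (chr17:14694263-14694512, minus strand): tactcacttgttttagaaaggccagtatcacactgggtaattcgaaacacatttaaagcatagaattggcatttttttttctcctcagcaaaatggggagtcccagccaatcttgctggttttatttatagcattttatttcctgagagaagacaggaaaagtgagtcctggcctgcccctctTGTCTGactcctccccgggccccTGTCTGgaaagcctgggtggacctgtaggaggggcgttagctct
Thbs3 (chr3:89214930-89215179, plus strand): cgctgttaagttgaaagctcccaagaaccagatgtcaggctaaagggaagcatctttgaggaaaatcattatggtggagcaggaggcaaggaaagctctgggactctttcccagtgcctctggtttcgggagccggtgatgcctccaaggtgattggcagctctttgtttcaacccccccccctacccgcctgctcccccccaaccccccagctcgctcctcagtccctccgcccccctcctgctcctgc
Tnxb (chr17:34670285-34670534, plus strand): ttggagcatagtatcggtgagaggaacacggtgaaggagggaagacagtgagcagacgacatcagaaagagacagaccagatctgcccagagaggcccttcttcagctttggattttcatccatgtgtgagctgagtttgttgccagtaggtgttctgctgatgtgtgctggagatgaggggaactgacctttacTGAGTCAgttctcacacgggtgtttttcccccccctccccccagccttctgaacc
Postn (chr3:54360857-54361106, plus strand): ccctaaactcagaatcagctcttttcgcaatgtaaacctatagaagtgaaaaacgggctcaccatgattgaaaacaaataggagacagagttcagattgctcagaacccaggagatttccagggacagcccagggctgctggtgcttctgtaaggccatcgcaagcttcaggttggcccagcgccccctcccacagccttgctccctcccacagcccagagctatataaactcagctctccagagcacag
Ccn1 (chr3:145649986-145650235, minus strand): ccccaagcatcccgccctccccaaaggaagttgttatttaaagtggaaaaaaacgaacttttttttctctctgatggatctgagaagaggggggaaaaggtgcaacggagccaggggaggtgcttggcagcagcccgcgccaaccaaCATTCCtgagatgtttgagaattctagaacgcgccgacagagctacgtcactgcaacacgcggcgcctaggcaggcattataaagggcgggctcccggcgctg
The Thbs2 window holds the SMAD letters at 2 places, starting 67 and 44 bases before the start site. A window of Tnc, whose groups overlapped and which is not printed here, also holds them, 71 bases before its start site. The Ccn1 window holds the TEAD letters 103 bases before its start, and the Tnxb window holds the AP-1 letters 55 bases before its start. The Thbs3 and Postn windows hold none of the 5 motifs. Of all 32851 windows of this length, 17.1% hold the SMAD letters, 12.6% the TEAD letters, 6.75% the AP-1 letters, 3.21% the TCF/LEF letters and 1.47% a CArG box. These matches describe letters only.

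The 10 genes differed widely in level. CPM divided by the summed exon length in kilobases (GENCODE M21) gave 1581 ± 26.2 for Thbs1 in controls (mean ± SD, n = 2), 317 ± 41.7 for Ccn2 and 142 ± 25.1 for Ccn5. Tnc (86.95 ± 6.55) and Ccn1 (83.97 ± 5.36) followed and did not differ beyond their spread. Thbs2 (23.9 ± 0.638), Tnxb (13.3 ± 1.86), Ccn4 (11.8 ± 0.296), Thbs3 (7.78 ± 0.0995) and Postn (2.28 ± 0.290) came last, of which Tnxb and Ccn4 did not separate. In cKO, Ccn2 (226 ± 39.7) and Ccn5 (209.5 ± 9.05) no longer separated, and Ccn1 (104 ± 4.58) stood above Tnc (94.98 ± 4.83). Thbs1 alone took 0.822% to 1.09% of all counts and was the gene with the second or the third highest count in every library.

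**Figure D1:**
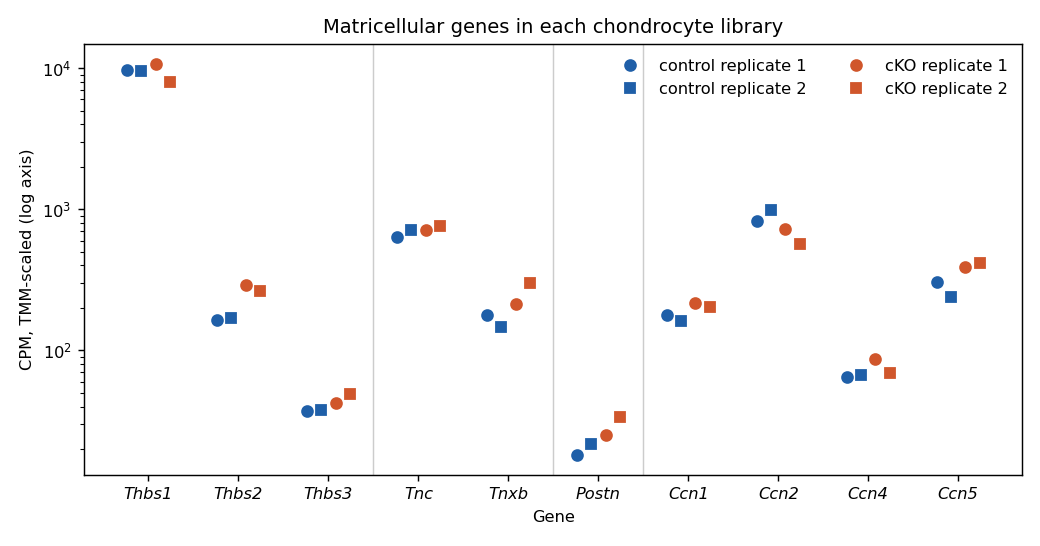
TMM-scaled CPM on a log axis for each of the 10 genes, with 1 point per library (circles replicate 1, squares replicate 2, blue control, orange cKO) and vertical lines between families. The cKO points of Thbs2 lie at 292 and 262 CPM above control points at 164 and 170 CPM, while those of Ccn2 lie below its control points.

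Of the 10 genes, Thbs2 rose in cKO and the other 9 did not pass. The adjusted p of Thbs2 was 0.0264 by the edgeR quasi-likelihood test, adjusted over all 15522 genes tested. Calls at an adjusted p under 0.05 made up 1.30% of those genes. They numbered 61 higher and 141 lower in cKO, or 116 and 123 when scaled by library size without TMM. At an unadjusted p under 0.05 in the same edgeR fit there were 6 of the 10 higher and 1 lower, where 8.36% and 8.88% of all genes tested were higher and lower. DESeq2 called 5 of the 10 (Thbs2, Postn, Ccn1 and Ccn5 higher, Ccn2 lower) and 7.54% of all genes. The median log2 fold change was 0.30 over the 10 genes and 0.00 over all genes tested, and 8 of the 10 values were above 0, as were 50.4% of all. With library sizes alone 9 of the 10 values were above 0, as were 62.6% of all. Without cKO replicate 1, 5 of the 10 were called (Thbs2, Tnxb and Postn higher, Thbs1 and Ccn2 lower), where 4.90% of all genes were. In 7 genes each cKO library was above each control library and in Ccn2 each was below, where 24.9% of all genes did the one and 24.9% the other.

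Thbs2, on chromosome 17 (14665500 to 14694235, minus strand, ENSMUSG00000023885.9), encodes a secreted trimer that inhibits blood vessel growth and whose loss disturbs collagen fibrils in mice. It had 10733 and 12851 counts in controls against 22648 and 21326 in cKO, replicate 1 first, or 164, 170, 292 and 262 CPM. Both cKO values lay well above both controls, the nearest cKO value being 1.54 times the nearest control value. The rise was 1.66-fold, or 0.73 ± 0.07 (SE) on the log2 scale, with a 95% interval from 0.56 to 0.90. The adjusted p was 0.12 without control replicate 1 and 0.13 without control replicate 2, at log2 fold changes of 0.70 and 0.76. Those fits called 5 and 19 genes in all.

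Thbs1 encodes the trimer that binds CD36 and CD47 and activates latent TGF-beta, and lies on chromosome 2 (118111876 to 118127133, plus strand, ENSMUSG00000040152.8). It had 635348 and 715593 counts in controls against 835333 and 648540 in cKO, or 9715, 9490, 10771 and 7980 CPM. The cKO libraries lay on either side of the controls. The log2 fold change was -0.03 ± 0.13, with an interval from -0.35 to 0.28, and 0.03 with library sizes alone. The value turned on which cKO library was kept: it was -0.27 without cKO replicate 1 (edgeR adjusted p = 0.0044) and 0.17 without cKO replicate 2 (0.0639).

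Thbs3, a pentamer with a part in the timing of skeletal growth in mice, lies on chromosome 3 (89215180 to 89226837, plus strand, ENSMUSG00000028047.11). It had 37.2 and 37.9 CPM in controls against 42.1 and 49.3 CPM in cKO. The groups did not overlap, but the difference, 0.28 ± 0.10 on the log2 scale, did not pass (edgeR adjusted p = 0.21). It was 0.17 without cKO replicate 2 (edgeR adjusted p = 0.59) and 0.39 without cKO replicate 1 (0.0594). Part of its exon sequence, 6.59%, overlaps exons of Mtx1 on the opposite strand, a gene with 1585 to 2011 counts per library, and without a strand setting in the sources used here reads there cannot be assigned to either gene with certainty.

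The other thrombospondin genes, Thbs4 and Comp, were fixed as relatives for comparison. Comp, the cartilage oligomeric matrix protein and a chondrocyte marker, fell from 1991 and 2140 CPM to 1234 and 943 CPM, with a log2 fold change of -0.92 ± 0.12 (SE) and an edgeR adjusted p of 0.0373. Thbs4 was low, with 5.37 and 9.12 CPM in controls against 11.6 and 7.15 CPM in cKO, and its groups overlapped. Thus in the thrombospondin family 1 gene rose, 1 fell and 3 did not pass.

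Tnxb encodes tenascin-X, which binds collagen fibrils and whose loss in humans causes a form of Ehlers-Danlos syndrome. It lies on chromosome 17 (34670535 to 34719815, plus strand, ENSMUSG00000033327.16). It had 11674 and 11033 counts in controls against 16560 and 24389 in cKO, or 179, 146, 214 and 300.1 CPM. Both cKO libraries were above both controls, cKO replicate 2 most of all. The log2 fold change, 0.66 ± 0.17 with an interval from 0.25 to 1.07, did not pass (edgeR adjusted p = 0.13), and it was 0.88 without cKO replicate 1 (adjusted p = 0.0081) and 0.40 without cKO replicate 2 (0.22). Of its distinct 50-base stretches, 6.41% also occur in Tnxa, so reads there may be shared.

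Tnc, the tenascin of developing and injured cartilage and tendon, lies on chromosome 4 (63959785 to 64047015, minus strand, ENSMUSG00000028364.15). It had 640 and 712 CPM in controls against 712 and 765 CPM in cKO, with control replicate 2 and cKO replicate 1 at about the same level. Its log2 fold change was 0.13 ± 0.07, with an interval from -0.05 to 0.31 (edgeR adjusted p = 0.45), and ran from 0.053 without control replicate 1 to 0.21 without control replicate 2.

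Postn encodes periostin, a collagen- and integrin-binding protein of periosteum, ligament and healing tissue, on chromosome 3 (54361109 to 54391037, plus strand, ENSMUSG00000027750.16). It was the lowest of the 10, with 1183 and 1633 counts in controls against 1962 and 2746 in cKO, or 18.1, 21.7, 25.3 and 33.8 CPM. The groups did not overlap. Its log2 fold change of 0.57 ± 0.16 did not pass (edgeR adjusted p = 0.15), though it did without cKO replicate 1 (0.76, adjusted p = 0.0297) and by DESeq2 (adjusted p = 0.0209). Without cKO replicate 2 it was 0.35 (edgeR adjusted p = 0.42).

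**Figure D2:**
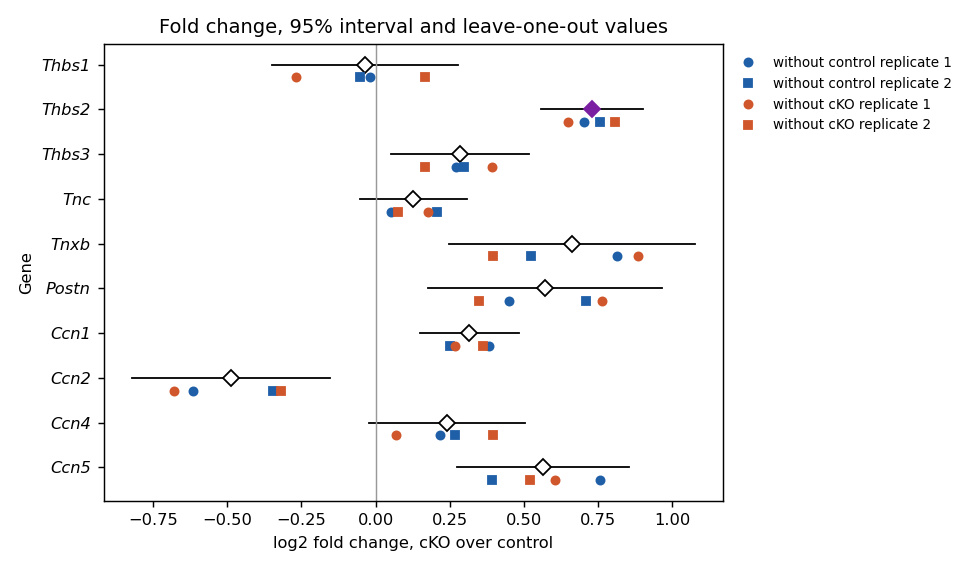
Log2 fold change of each gene, cKO over control (diamonds, filled where the edgeR adjusted p is under 0.05), with 95% intervals as bars and, below each bar, the value with 1 library left out. Thbs2 alone is filled, at 0.73, and the 4 values of Thbs1 run from -0.27 to 0.17, on both sides of 0.

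The CCN genes did not all lie on one side of their controls. Ccn2 (connective tissue growth factor, needed for growth plate cartilage in mice) lies on chromosome 10 (24595442 to 24598683, plus strand, ENSMUSG00000019997.11). It was the only one of the 10 with both cKO libraries below both controls: 53811 and 74759 counts in controls against 56416 and 46055 in cKO, or 823, 991, 727 and 567 CPM. The log2 fold change was -0.49 ± 0.14, with an interval from -0.82 to -0.15 (edgeR adjusted p = 0.15). DESeq2 gave an adjusted p of 0.0031 for Ccn2, and when cKO replicate 1 was left out edgeR gave 0.0168 at -0.68 on the log2 scale. Without cKO replicate 2 the log2 fold change was -0.32. It was -0.35 without control replicate 2 and -0.62 without control replicate 1. An opposite-strand transcript, Gm15270, covers 23.2% of the Ccn2 exon bases and had 20 to 39 counts per library.

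Ccn5, a CCN protein that lacks the C-terminal cysteine knot of its relatives, lies on chromosome 2 (163820861 to 163833146, plus strand, ENSMUSG00000027656.7). It had 20074 and 18000 counts in controls against 30307 and 33761 in cKO, or 307, 239, 391 and 415 CPM. Each cKO library exceeded each control, by a factor of at least 1.27 between the nearest values. The difference was 0.56 ± 0.12 on the log2 scale, with an interval from 0.27 to 0.85 (edgeR adjusted p = 0.0868, DESeq2 adjusted p = 5.3e-05). It depended on the control kept, at 0.76 without control replicate 1 and 0.39 without control replicate 2.

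Ccn1 (CYR61), an integrin ligand and immediate early gene, lies on chromosome 3 (145646976 to 145649981, minus strand, ENSMUSG00000028195.4). It had 177 and 162 CPM in controls against 217 and 204 CPM in cKO, and the groups did not overlap. On the log2 scale the difference was 0.32 ± 0.07 (edgeR adjusted p = 0.0925, DESeq2 adjusted p = 0.0023). With 1 library left out it ran from 0.25 to 0.38. Ccn1 and Ccn2, both known as YAP/TEAD targets, thus lay on opposite sides of their controls, though neither passed by edgeR.

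Ccn4 (WISP1), a Wnt-induced member found in bone and cartilage, lies on chromosome 15 (66891320 to 66923201, plus strand, ENSMUSG00000005124.10). It had 64.6 and 66.9 CPM in controls against 86.4 and 68.98 CPM in cKO. Only cKO replicate 1 stood clear, since cKO replicate 2 was 1.03 times the higher control. Its log2 fold change was 0.24 ± 0.11 (edgeR adjusted p = 0.33) and 0.07 without cKO replicate 1 and 0.40 without cKO replicate 2. Of the remaining CCN genes, Ccn3, known as a growth-restraining member of the family, rose from 134 and 142 CPM to 184 and 178 CPM. The difference was 0.39 ± 0.06 on the log2 scale (edgeR adjusted p = 0.0434). Ccn3 did not pass with no filter on low counts (edgeR adjusted p = 0.0522) or with a replicate block (0.101). Ccn6 was low, and its log2 fold change of -0.98 did not pass (edgeR adjusted p = 0.45). That value was -0.22 without control replicate 1 and -1.48 without control replicate 2.

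Ratios of counts within a library do not depend on scaling between libraries. With 2 libraries against 2, the smallest p that a two-sided exact permutation test can give is 0.333, so none of the 7 ratios computed can pass. Thbs1 had 59.2 and 55.7 times the counts of Thbs2 in controls against 36.9 and 30.4 times in cKO, a log2 difference of -0.78 (exact permutation p = 0.333, adjusted over the 7 ratios 0.467). Both cKO libraries had a lower ratio of these trimers' RNAs than either control. Ccn2 had 2.68 and 4.15 times the counts of Ccn5 in controls against 1.86 and 1.36 times in cKO, a log2 difference of -1.07. The ratio of Ccn1 to Ccn2 was 0.215 and 0.163 in controls against 0.299 and 0.361 in cKO. Tnc to Tnxb and Tnc to Postn also did not overlap, with log2 differences of -0.52 and -0.43. Leaving out control replicate 2 gave -0.30 for Tnc to Tnxb. Leaving out cKO replicate 2 gave -0.33 for that ratio and -0.28 for Tnc to Postn. The ratios of Thbs1 to Thbs3 and of Ccn4 to Ccn5 overlapped. Thus 5 of 7 ratios did not overlap, where 48.9% of all pairs of tested genes did not, and the 7 share genes with each other.

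**Figure D3:**
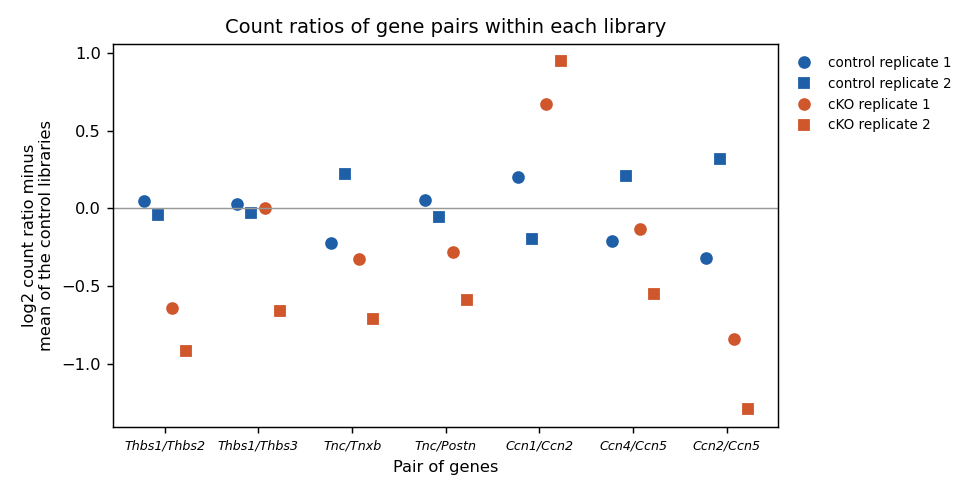
Log2 ratio of the counts of 2 genes in each library, minus the mean of the control libraries (symbols as in the plot of CPM by library). The cKO libraries lie apart from the controls in 5 of the 7 pairs, against 48.9% of all gene pairs, and the mean difference for Ccn2 to Ccn5 is -1.07.

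The cKO libraries also differed from each other. Thbs1 in cKO replicate 2 was 0.741 times its level in cKO replicate 1, Ccn2 0.779 times and Ccn4 0.798 times, while Tnxb was 1.41 times and Postn 1.34 times as high. Thbs2, Ccn1 and Ccn5 were closer, at 0.899, 0.940 and 1.06 times. Between the controls, the ratios of replicate 2 to replicate 1 ran from 0.778 for Ccn5 to 1.20 for Ccn2.

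Marker sums were taken in the same libraries, and not all of them differed between the groups. Sums of CPM by plain library size were 22417 and 26398 for the chondrocyte markers in controls and 12705 and 9221 in cKO. All 10 log2 fold changes were below 0. By edgeR 8 of the 10 passed. These were the collagen genes Col2a1, Col9a1 and Col11a2, the matrix genes Acan, Hapln1, Matn1 and Comp, and Snorc, a chondrocyte membrane proteoglycan gene, at log2 fold changes from -0.92 for Comp to -1.77 for Snorc. For 12 fibroblast markers the sums were 11395 and 11101 in controls against 13417 and 14256 in cKO. By edgeR 4 rose, the collagen genes Col1a1 and Col3a1, the growth factor receptor gene Pdgfrb and the stromal surface marker Cd34. Of the 12 log2 fold changes, 10 were above 0 and 2 below, and DESeq2 called 6 higher and 1 lower. For 8 adipocyte markers the sums were 198 and 202 in controls against 297 and 480 in cKO. None of the 7 tested passed by edgeR. Lep was at 0 throughout, 4 of the 7 were under 0.05 before adjustment, and 3 were called by DESeq2. The part of these markers in the values of Thbs2, Tnxb, Postn, Ccn2 and Ccn5 was not tested. Skeletal muscle sums overlapped between groups (2.35 and 21.8 in controls, 46.8 and 10.5 in cKO, with Myf5 and Pax7 at 0). Macrophage sums were 24.8 and 17.96 against 21.3 and 22.7. Endothelial sums were 2.80 and 4.06 against 4.29 and 4.01, with Emcn at 0. The 11 markers of tendon and ligament, tissues rich in Tnc and Thbs4, summed to 2496 and 2593 in controls against 2937 and 2600 in cKO. None of those 11 passed by edgeR, with 2 at an unadjusted p under 0.05 and 1 called by DESeq2. Smooth muscle and pericyte sums were 387 and 432 against 306 and 242, nearly all of it Cspg4, a proteoglycan gene that chondrocytes also express, at 381 and 427 CPM against 285 and 210.01 CPM (edgeR adjusted p = 0.0830). The median log2 fold change of that list was 0.41, with 3 of 5 above 0. Schwann cell sums were 174 and 204 against 124 and 95.1, with Sox10 at 0. Most of each sum was S100b, at 165 and 195 CPM in controls against 112 and 81.8 CPM in cKO (edgeR adjusted p = 0.0577). DESeq2 called 2 genes of that list lower.

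In the 7 lists of genes related to the 10 by function, 11 of 133 distinct genes tested were called, or 8.27%, beside 1.30% of all genes. The 11 were 7 higher and 4 lower, and DESeq2 called 31 of the 133, or 23.3%, beside 7.54% of all. These lists were chosen with earlier results of these data known, so neither share is a test of them. Over all these lists and the cell type markers, 22 distinct genes were called. Leaving out either control left 1 of them, the cartilage matrix gene Matn1, and leaving out cKO replicate 1 gave 50 calls. Of 21 other matricellular genes tested, 1 rose (Ccn3) and 1 fell (Comp, which is also in the chondrocyte list), and the median log2 fold change was 0.24. DESeq2 called 6 higher and 1 lower. Fbln1, which encodes the basement membrane protein fibulin-1, had 44.9 and 41.4 CPM in controls against 59.8 and 71.3 CPM in cKO (edgeR adjusted p = 0.0549, DESeq2 adjusted p = 2.4e-05). Of 22 receptors and binding partners, 1 fell and none rose by edgeR, with 6 higher at an unadjusted p under 0.05 and a median of 0.10, while DESeq2 called 3 higher and 2 lower. It was Itga6, an integrin chain of laminin receptors that CCN1 also binds, which went from 183 and 187 CPM to 104 and 87.3 CPM (log2 fold change -0.95 ± 0.09, adjusted p = 0.0264). Cd36, a thrombospondin receptor also made by adipocytes, had 5.66 and 5.82 CPM in controls against 10.7 and 19.6 CPM in cKO (edgeR adjusted p = 0.0792, DESeq2 adjusted p = 6.7e-05).

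Among 22 YAP/TEAD target genes other than Ccn1 and Ccn2, 4 rose and 1 fell, with a median log2 fold change of 0.22. DESeq2 called 7 higher and 1 lower. Igfbp3, an IGF-binding protein, went from 144 and 142 CPM to 227 and 211 CPM (0.62 ± 0.06). Tgfb2, a TGF-beta ligand, went from 114 and 104 to 174 and 160 CPM. Axl, a receptor tyrosine kinase, went from 168 and 167 to 246 and 230 CPM, and Asap1, a regulator of Arf GTPases, from 101 and 103 to 128 and 134 CPM. Nt5e, which encodes the adenosine-producing enzyme CD73, fell from 100.4 and 127 to 69.4 and 69.6 CPM. The edgeR adjusted p-values of these 5 lay between 0.0264 for Igfbp3 and 0.0472 for Asap1 and Nt5e. None of the 5 passed when either control was left out, and 3, all higher, passed without cKO replicate 2.

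The 18 TGF-beta response genes tested had a median of 0.04 and no call by edgeR. At an unadjusted p under 0.05 there were 5 higher and 2 lower, and DESeq2 called 3 higher and 1 lower. Bhlhe40 had the smallest p of that list and was lower in cKO, at -0.48 (edgeR adjusted p = 0.0519, DESeq2 adjusted p = 9.0e-06). The 16 SRF/MRTF targets had a median of 0.13 and no call by edgeR, with 3 at an unadjusted p under 0.05 and 1 called by DESeq2. Of 19 immediate early genes, Ier3, a stress-induced survival gene, fell (151 and 150.5 to 87.9 and 70.2 CPM, edgeR adjusted p = 0.0289), with a list median of 0.03. In that list 1 gene was higher and 4 were lower at an unadjusted p under 0.05, and DESeq2 called 2 lower. Of 18 Wnt target genes tested, 2 rose by edgeR, Axin2 and Ccnd1, with a list median of 0.50. At an unadjusted p under 0.05 there were 9 higher and 2 lower, and DESeq2 called 4 higher. The Wnt-induced Ccn4 (0.24) and Ccn5 (0.56) did not pass by edgeR. Without control replicate 1 and without control replicate 2 none of the Wnt targets passed.

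**Figure D4:**
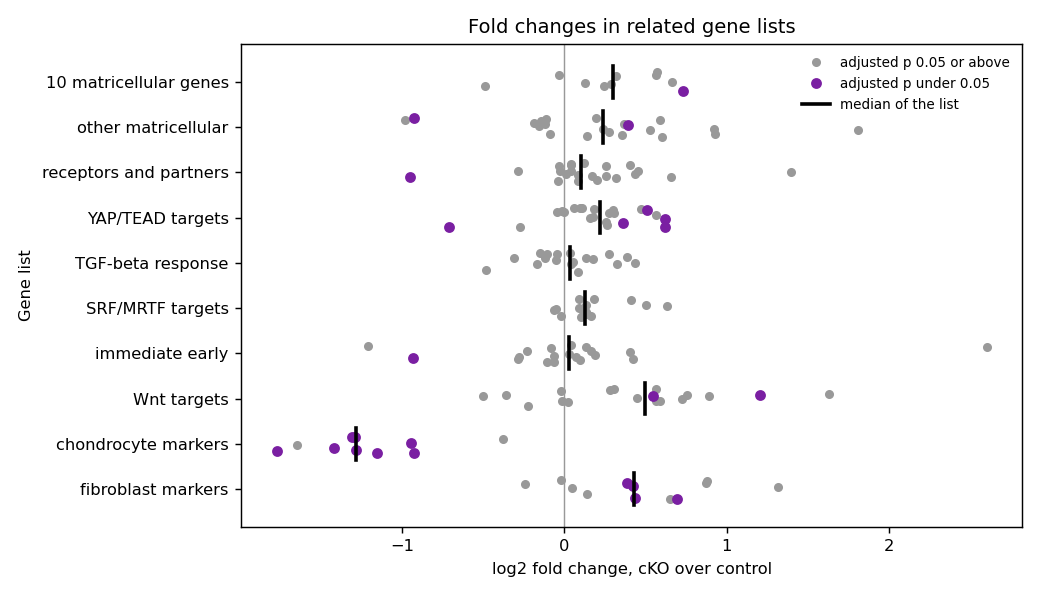
Log2 fold changes, cKO over control, of the tested genes in each list (points, purple where the edgeR adjusted p is under 0.05), with black bars at the list medians. Most of the 10 matricellular genes lie above 0 with a median of 0.30, and the chondrocyte markers all lie below 0 with a median of -1.29.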

How the data were processed

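Poly(A) RNA of 4 chondrocyte cultures was sequenced after random priming, per the labels' protocols. The authors deposited raw counts per gene symbol, as whole numbers in 1 table. The tools named in the submitters' processing notes are Trim Galore 0.6.7, HISAT2 2.2.1, StringTie 2.1.7 and FastQC 0.11.9, in no stated order, with the build mm10. How reads were assigned to genes, including strand and shared reads, was not stated in the sources used here.

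Libraries were grouped by their labelled genotype. Genes were filtered by filterByExpr (minimum count 10), scaled by TMM and tested for genotype with the quasi-likelihood test of edgeR 4.0.16 in R 4.3.3. P-values were adjusted by Benjamini-Hochberg over the 15522 genes tested, with calls under 0.05. The biological coefficient of variation came to 0.174. The SE of a log2 fold change is its size divided by the square root of F. DESeq2 1.42.0, limma-voom (limma 3.58.1), other scalings, no filter, leaving out each library and replicate blocks were alternatives. Lengths and positions come from GENCODE M21, which matched 96.5% of the symbols, and promoter windows from RefSeq. The fits were also run on counts simulated from the estimated spread of each gene, which checks the code and not the calls made here.

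The genes, lists and motifs were chosen with earlier results of these data known. All 10 genes are named, with every called gene of the other lists and, where few were called, some of the 3 with the smallest p.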

Additional observations from a re-analysis of the deposited data

How the results depend on the processing

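Over the 11 alternatives, 9 of the 10 matricellular genes kept the sign of their log2 fold change. Thbs1 turned to 0.029 with library sizes alone and ran from -0.27 to 0.17 with 1 library left out, the latter without cKO replicate 2. Its relative Thbs4 ran from -0.023 (without cKO replicate 1) to 0.80. DESeq2 called 1171 genes in all, 5 of the 10 and 54 in the other lists, against 202, 1 and 22 by edgeR, and limma-voom called 333 genes. Leaving out 1 library gave 5 to 782 genes, 0 to 5 of the 10 (none without either control, 5 without cKO replicate 1) and 1 to 50 in the other lists. The 10 had 5 to 8 unadjusted p-values under 0.05 in these fits. A lone library is assumed there to vary like the other group. The Thbs1 to Thbs3 log2 ratio difference of -0.33 ran from -0.66 to 0.00052, and for the other 6 ratios no left-out library turned the sign, though sizes moved. The cause of these shifts was not tested.

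Same-numbered libraries did not deviate together (correlation of deviations -0.12), and the labels do not say that numbers pair them. With a replicate block, 23 genes were called in all, 0 of the 10 (Thbs2 at an adjusted p of 0.0513, edgeR) and 2 in the other lists. A crossed replicate block, chosen after seeing the data, gave 564, 4 and 37 calls. Depth was not limiting for the 10 genes, the lowest count being 1183. The spread of 2 libraries per group limits the precision.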

Other observations

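Of the listed matricellular genes outside the 3 families, Sparc and Spp1 had the highest CPM, which was not divided by exon length here. They were chosen after their values were seen. Sparc, a collagen-binding glycoprotein, had 6107 and 6646 CPM in controls against 6145 and 5834 CPM in cKO, and its groups overlapped. Spp1, which encodes osteopontin, had 6827 and 5572 CPM in controls against 5421 and 6034 CPM in cKO, and its groups overlapped too. Within the families, Tnr, a tenascin best known from the nervous system, was low, at 0.474 and 0.398 CPM in controls against 1.61 and 1.44 CPM in cKO. Both cKO values were above both controls, and Tnr was called by DESeq2 but not by edgeR.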
